A study of Mus musculus with 16 samples.

Results

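Genes of the unfolded protein response (UPR) and of endoplasmic reticulum (ER) associated degradation were followed in mouse liver 12 h after partial hepatectomy (PHx) or a sham operation. The list held 35 genes, chosen by symbol, and 33 of them were measured among the 30142 genes with a level on the array. Pdia4 and Manf lay only on probe sets that also carry another gene's symbol and were not read. Each measured gene was taken from its probe set with the highest mean over the 16 arrays. The measured members were 12 chaperones and folding factors, 9 degradation genes, 4 stress sensors or their transcription factors, 6 genes of the ATF4 branch and 2 genes of protein entry into the ER.

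The design had 4 groups of 4 arrays of total liver RNA. Pparafl/fl mice, which the labels also call WT, carry floxed alleles of Ppara, the gene of the fatty acid sensing nuclear receptor PPARα, and were sampled after sham or after PHx. Ppara△Hep mice, in which the labels give the disruption as specific to hepatocytes, were sampled after the same operations. Every group, controls included, was operated on and carries floxed Ppara or its disrupted form. The labels used here do not name the Cre driver or the age of the animals, nor whether animals were pooled. The growth note of the labels states that the time was chosen because the liver becomes steatotic within a day of PHx. The genotypes are called fl/fl and △Hep below, and arrays are numbered 1 to 4 within a group in the order of the records, which pairs nothing.

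Secreted and membrane proteins fold in the ER, where the chaperone BiP (Hspa5), GRP94 (Hsp90b1), lectins such as calnexin and disulfide isomerases hold them until they are mature. Chains that fail are trimmed by EDEM proteins, drawn to the membrane complex of SEL1L and the ubiquitin ligase HRD1 (Syvn1), passed out through derlins and degraded by the proteasome. When unfolded chains accumulate, the sensor IRE1 (Ern1) splices the Xbp1 mRNA, ATF6 is cleaved to a transcription factor, and PERK (Eif2ak3) slows translation while ATF4 is made. XBP1 and ATF6 act on chaperone and degradation genes, while ATF4 acts on amino acid synthesis and on Ddit3, Trib3 and Chac1. The hepatocyte secretes most plasma proteins, so many of the folding genes are abundant in liver.

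Promoter windows (250 bases before to 50 after the start, RefSeq, GRCm38.p6) were listed for 31 of the 35 genes. The ER stress response element (ERSE, the letters CCAAT and CCACG with 9 bases of any kind between them) was found in 9 of these 31 against 37 of 27025 listed promoters (0.137%). The shorter ERSE-II (ATTGG and CCACG with 1 base between them) was found in 2 of 31 (Dnajb11 and Herpud1) against 0.0444%. The XBP1 element UPRE (TGACGTGG) was found in 0 of 31 against 0.714%, and the ATF4 element CARE (TGATGNAA) in 4 of 31 (Herpud1, Trib3, Asns and Chac1) against 4.51%. Both strands were searched for each. The stretches below are shown because they carry the ER stress letters in members that were lower after PHx (Derl3, Dnajc3, Hsp90b1, Pdia6, Calr) and in members that did not pass (Hspa5, Syvn1, Herpud1), with the ATF4 letters of Asns. Capitals mark the matched motif, ERSE in the first 7, ERSE-II in Herpud1 and CARE in Asns, and each runs 5′ to 3′ along the gene's strand.
Derl3 (chr10:75893217-75893285, plus strand): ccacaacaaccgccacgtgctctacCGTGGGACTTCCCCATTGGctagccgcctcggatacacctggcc
Dnajc3 (chr14:118937802-118937870, plus strand): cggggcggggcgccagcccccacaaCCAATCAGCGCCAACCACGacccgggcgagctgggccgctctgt
Hsp90b1 (chr10:86705508-86705576, minus strand): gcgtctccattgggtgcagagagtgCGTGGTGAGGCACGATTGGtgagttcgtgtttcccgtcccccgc
Pdia6 (chr12:17266466-17266534, plus strand): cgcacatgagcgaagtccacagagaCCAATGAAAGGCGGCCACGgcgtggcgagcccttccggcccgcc
Calr (chr8:84847050-84847118, minus strand): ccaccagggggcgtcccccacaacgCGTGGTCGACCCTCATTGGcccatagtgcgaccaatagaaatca
Hspa5 (chr2:34772000-34772068, plus strand): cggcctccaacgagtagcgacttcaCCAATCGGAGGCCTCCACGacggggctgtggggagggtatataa
Syvn1 (chr19:6046507-6046575, plus strand): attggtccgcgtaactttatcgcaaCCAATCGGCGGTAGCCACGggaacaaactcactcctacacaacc
Herpud1 (chr8:94386352-94386412, plus strand): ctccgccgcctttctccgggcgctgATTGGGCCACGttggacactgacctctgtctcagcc
Asns (chr6:7693210-7693257, minus strand): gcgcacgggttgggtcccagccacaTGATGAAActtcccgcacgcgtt
Canx and Creld2 also held an ERSE, and Hsp90b1 held 2. Of the 9 genes with an ERSE, 6 were lower after PHx in fl/fl and 7 in △Hep livers (median log2 change -0.71 and -0.61). Of the 19 measured genes with a listed promoter and neither ERSE nor ERSE-II, 7 were lower in each genotype (median -0.15 and -0.13). Of all genes, 20.8% were lower in fl/fl and 17.5% in △Hep at limma adjusted p under 0.05, or 30.4% and 26% with dim genes left out. Most of the genes with an ERSE are chaperones or folding factors, so motif and class were not separated. The difference between genes with and without the motif was not tested. These matches describe letters in a window, and binding was not measured.

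The targeted gene was read first. Ppara read 6.45, 7.02, 6.99 and 6.77 after sham and 6.97, 6.08, 5.68 and 7.24 after PHx in fl/fl livers, and 6.29, 6.43, 6.43 and 6.05 after sham and 6.26, 5.02, 5.28 and 4.70 after PHx in △Hep livers. The △Hep arrays lay lower on average (difference after sham -0.50 ± 0.33 SE, limma adjusted p = 0.681, and after PHx -1.17 ± 0.33, adjusted p = 0.326), and neither difference passed. All 4 △Hep arrays lay below all 4 fl/fl arrays after sham, and the groups overlapped after PHx. Where this probe set lies relative to the deleted part is not known here, so it neither checks nor contradicts the genotype labels.

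Sham and PHx arrays also differed in control probe sets and in probe sets of chromosome Y. Whether the positive control probe sets read transcripts of the liver sample is not given here. Array medians of the positive control probe sets were 5.30 to 5.66 on the 8 PHx arrays and 5.82 to 6.06 on the 8 sham arrays, and those of the antigenomic background probe sets were 0.97 to 1.09 against 1.19 to 1.29. The 558 probe sets of chromosome Y had a median of 4.99 to 5.49 on PHx arrays and 1.70 to 1.87 on sham arrays, while Kdm5d, a single-copy gene of that chromosome, read 3.44 to 3.90 and 3.90 to 4.16. Whatever separates the arrays in this way cannot be told apart from the operation. Within a group, arrays correlated at 0.98 to 0.99 over all probe sets, and no pair was identical. Mean levels of the 14 hepatocyte marker genes were 10.67 to 10.81 on sham and 10.61 to 10.66 on PHx arrays in fl/fl. In △Hep they were 10.70 to 10.80 and 10.62 to 10.72. In whole liver, fewer cells of a type and less RNA per cell cannot be told apart. The labels do not say that the 4 arrays of a group came from separate animals, so a p-value speaks only of the spread among these samples, which may be technical.

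After PHx, 15 of the 33 members were lower in fl/fl livers and 17 of 33 in △Hep livers, and none was higher in either (limma on all 16 arrays, Benjamini-Hochberg over all genes, adjusted p under 0.05). At an unadjusted p under 0.05 the counts were 17 lower and 0 higher in fl/fl, and 18 lower and 0 higher in △Hep, where 27.2% and 15.8% of all genes were lower and higher in fl/fl, and 22.2% and 20.1% in △Hep. At the adjusted threshold, of all genes tested, 20.8% were lower and 11.9% higher in fl/fl, and 17.5% were lower and 14.8% higher in △Hep. Among protein-coding genes alone 25.2% and 23.1% were lower, and with dim genes left out 30.4% and 26% were lower, so the members exceeded each of these shares. The median log2 change of the members was -0.35 in fl/fl and -0.45 in △Hep, against -0.04 and 0.01 over all genes. Subtracting array medians or quantile normalization raised the share of all genes called lower more than that of the members. The median change of the members moved with the scaling too. With each array's median subtracted, the median change of all genes became -0.15 in fl/fl and -0.14 in △Hep, and 43.6% and 43.8% of all genes were lower, against 17 and 20 of the 33 members (median -0.46 and -0.60). After quantile normalization 43% and 34.9% of all genes and 19 and 19 members were lower, and after cyclic loess 16.6% and 14.8% of all genes and 13 and 16 members. The members' median change was -0.46 and -0.65 after quantile normalization, against -0.14 and -0.10 over all genes. After cyclic loess it was -0.25 and -0.34, against -0.04 and -0.02. Of the genes that passed in fl/fl, 36.45% were higher with the deposited values, 14.82% with medians subtracted, 15.82% after quantile normalization and 41.66% after cyclic loess. In △Hep these shares were 45.83%, 13.93%, 19.75% and 45.26%. No member was higher under any of these scalings. Mean signals of the 33 members' probe sets ran from 2.86 to 10.11 on the log2 scale, above the median of 2.73 over all genes, and such signals also depend on the probes.

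The 15 members lower in fl/fl were all among the 17 lower in △Hep. The comparisons share no array, but both use 1 spread per gene from all 16 arrays, so a gene's calls in the genotypes are not independent. They were 9 chaperones and folding factors, 4 degradation genes, the sensor Ern1 and the translocon subunit Sec61b. With the deposited values Creld2 and Derl1 passed in △Hep and not in fl/fl, and the test of the difference between the genotypes' changes did not pass for either (adjusted p = 0.838 and 0.624). The PHx arrays lay wholly below the sham arrays for 15 members in fl/fl, where 19.9% of all genes did so, and for 14 in △Hep, where 16.2% did. In 13 members they did so in both genotypes. Over all genes, neither the share doing so in both genotypes nor the overlap of the calls was counted. The agreement of the genotypes is therefore not shown to be particular to the members. By class, 9 of 12 chaperones were lower (10 in △Hep), 4 of 9 degradation genes (5 in △Hep) and 0 of 6 genes of the ATF4 branch in either genotype. Differences between the classes were not tested, and with 6 genes a count of 0 is close to what shares of 20.8% and 17.5% give.

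**Figure D1:**
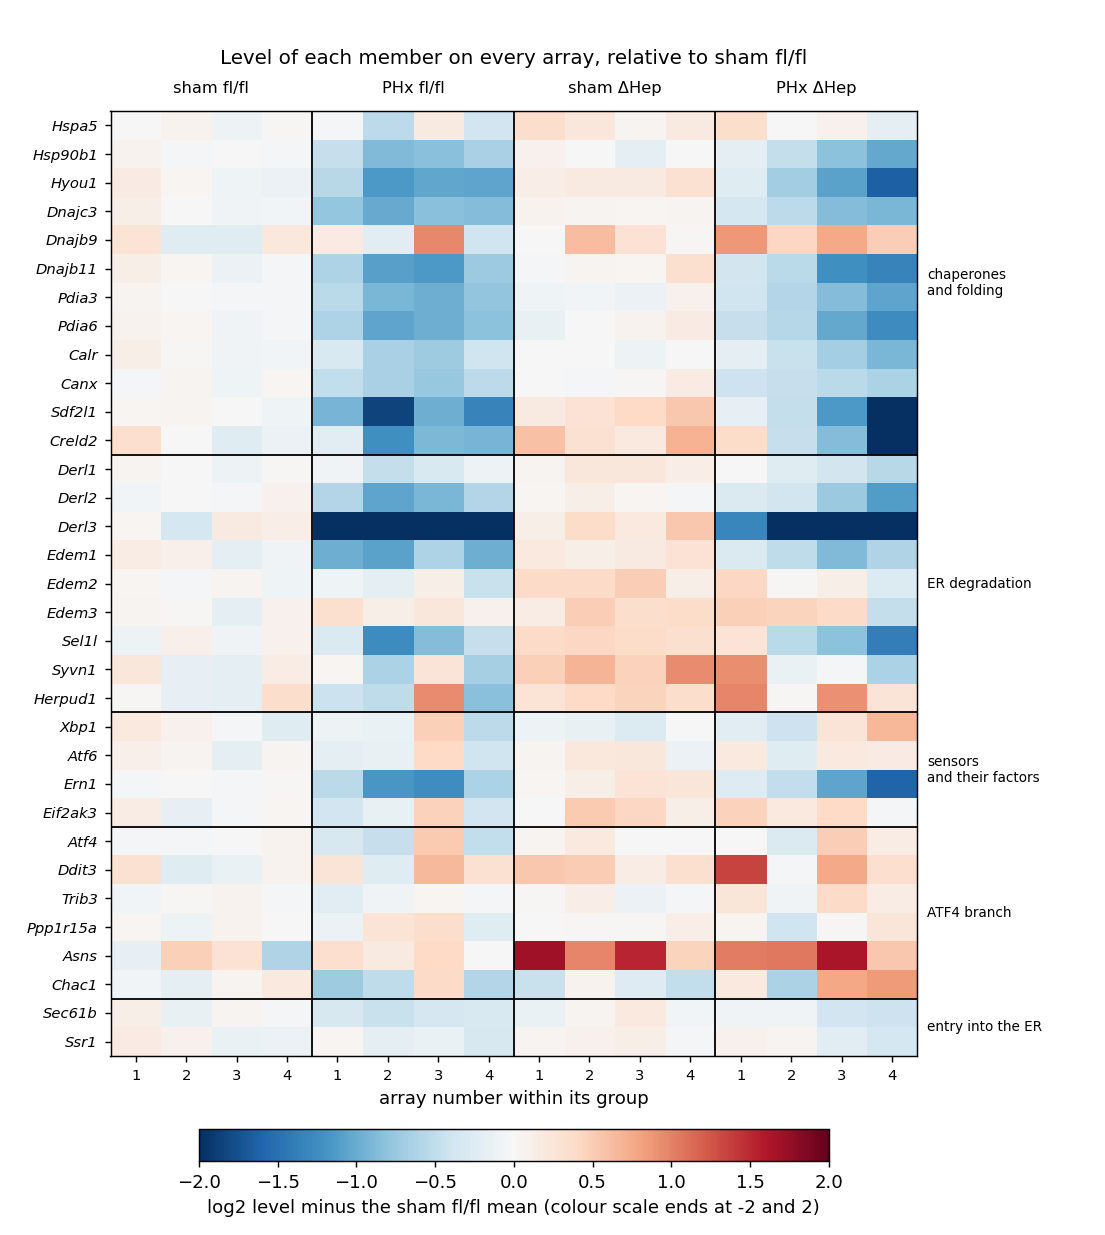
Level of each of the 33 members on each of the 16 arrays as the log2 level minus the mean of the sham fl/fl arrays, with colours ending at -2 and 2, rows grouped by role and columns by group. Blue blocks on the PHx arrays fill most chaperone rows and the Derl3 row, while the ATF4 rows show no common colour. On PHx △Hep array 1 the chaperone rows are paler than on array 4.

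Among the lumenal chaperones, GRP94 fell in both genotypes and BiP did not pass in either. Hsp90b1, which encodes the client-specific chaperone GRP94, was 1.63-fold lower in fl/fl and 1.52-fold lower in △Hep. Hsp90b1 read 10.51, 10.42, 10.45 and 10.42 after sham and 9.99, 9.57, 9.61 and 9.80 after PHx in fl/fl livers, and 10.53, 10.46, 10.25 and 10.46 after sham and 10.26, 9.97, 9.63 and 9.43 after PHx in △Hep livers. The groups did not overlap in fl/fl, and in △Hep array 1 after PHx lay just above the lowest sham array (changes -0.71 ± 0.14 SE, adjusted p = 0.00176, and -0.60 ± 0.14, adjusted p = 0.00478). Hspa5 read 9.35, 9.41, 9.23 and 9.36 after sham and 9.32, 8.82, 9.51 and 8.96 after PHx in fl/fl livers, and 9.69, 9.56, 9.39 and 9.52 after sham and 9.69, 9.35, 9.43 and 9.15 after PHx in △Hep livers. PHx and sham arrays overlapped in both genotypes, with changes of -0.18 ± 0.14 (adjusted p = 0.322) and -0.13 ± 0.14 (adjusted p = 0.491). Hyou1 encodes ORP150, the nucleotide exchange partner of BiP. Hyou1 read 8.35, 8.22, 8.10 and 8.06 after sham and 7.63, 7.03, 7.14 and 7.13 after PHx in fl/fl livers, and 8.31, 8.36, 8.36 and 8.48 after sham and 7.93, 7.49, 7.10 and 6.55 after PHx in △Hep livers. It was 1.93-fold and 2.16-fold lower, with no overlap in either genotype (adjusted p = 0.00374 and 0.00115).

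Of the J-domain cochaperones of BiP, Dnajc3 and Dnajb11 fell in both genotypes and Dnajb9 passed in neither. Dnajc3 (P58IPK) read 9.24, 9.15, 9.06 and 9.07 after sham and 8.36, 8.12, 8.30 and 8.27 after PHx in fl/fl livers, and 9.20, 9.19, 9.17 and 9.18 after sham and 8.78, 8.60, 8.27 and 8.22 after PHx in △Hep livers. Its change was -0.87 ± 0.10 in fl/fl (adjusted p = 1.44e-05) and -0.72 ± 0.10 in △Hep (adjusted p = 8.55e-05). Dnajb11 (ERdj3) read 6.67, 6.59, 6.44 and 6.51 after sham and 5.93, 5.47, 5.40 and 5.83 after PHx in fl/fl livers, and 6.51, 6.61, 6.59 and 6.87 after sham and 6.18, 6.01, 5.33 and 5.22 after PHx in △Hep livers. It was 1.86-fold and 1.95-fold lower, and for both genes every PHx array lay under every sham array (Dnajb11 adjusted p = 0.00226 and 0.00122). Dnajb9 encodes ERdj4, which restrains IRE1. Its group means after sham and PHx were 8.02 ± 0.28 and 8.15 ± 0.60 in fl/fl, and 8.25 ± 0.29 and 8.65 ± 0.21 in △Hep (SD, n = 4 each), and neither change passed (adjusted p = 0.72 and 0.229). Without PHx fl/fl array 3, which read 8.98 against 7.62 to 8.18 on the others, its fl/fl change turned from 0.13 to -0.15.

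Disulfide isomerases and lectins fell in both genotypes. Pdia3 read 9.74, 9.68, 9.65 and 9.66 after sham and 9.15, 8.76, 8.71 and 8.90 after PHx in fl/fl livers, and 9.60, 9.63, 9.56 and 9.76 after sham and 9.28, 9.10, 8.82 and 8.63 after PHx in △Hep livers. Pdia3 (ERp57) works with calnexin and calreticulin on glycoproteins and changed by -0.80 ± 0.12 (adjusted p = 1.58e-04) and -0.68 ± 0.12 (adjusted p = 5.65e-04). Pdia6 read 9.21, 9.17, 9.07 and 9.11 after sham and 8.53, 8.09, 8.16 and 8.32 after PHx in fl/fl livers, and 8.99, 9.14, 9.21 and 9.30 after sham and 8.68, 8.57, 8.12 and 7.88 after PHx in △Hep livers. The fall of Pdia6, another disulfide isomerase of the ER lumen, was -0.87 ± 0.14 and -0.85 ± 0.14 (adjusted p = 4.49e-04 and 4.66e-04). Canx read 8.88, 8.96, 8.82 and 8.95 after sham and 8.41, 8.25, 8.15 and 8.38 after PHx in fl/fl livers, and 8.92, 8.86, 8.92 and 9.07 after sham and 8.49, 8.44, 8.37 and 8.27 after PHx in △Hep livers. Calnexin, the membrane lectin, had the smallest SE of the chaperones, 0.07, with changes of -0.61 and -0.55 (adjusted p = 8.74e-06 and 2.31e-05). Calreticulin (Calr), its soluble counterpart, was 1.43-fold and 1.44-fold lower (adjusted p = 0.00637 and 0.0052). In these 4 genes no PHx array reached the sham range of its own genotype.

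Sdf2l1 and Creld2 are small ER proteins known as UPR targets, and Sdf2l1 had the largest fall of the class in both genotypes. Sdf2l1 read 8.17, 8.19, 8.12 and 8.04 after sham and 7.20, 6.28, 7.15 and 6.79 after PHx in fl/fl livers, and 8.31, 8.42, 8.53 and 8.66 after sham and 7.96, 7.66, 6.98 and 6.11 after PHx in △Hep livers. It was 2.42-fold lower in fl/fl and 2.47-fold lower in △Hep, with no overlap (changes -1.28 ± 0.30, adjusted p = 0.00508, and -1.30 ± 0.30, adjusted p = 0.00407). Creld2 read 9.22, 8.89, 8.65 and 8.77 after sham and 8.65, 7.66, 7.98 and 7.95 after PHx in fl/fl livers, and 9.47, 9.19, 9.08 and 9.57 after sham and 9.25, 8.43, 8.02 and 6.86 after PHx in △Hep livers. △Hep arrays after PHx spread from 6.86 to 9.25, and the highest lay above the lowest sham array. Its change passed in △Hep (-1.19 ± 0.36, adjusted p = 0.0203) and not in fl/fl (-0.82 ± 0.36, adjusted p = 0.0945). Fitted on the compared groups' arrays alone, the calls swapped, with adjusted p = 0.017 in fl/fl and 0.0683 in △Hep, and the fl/fl change also passed with array medians subtracted (-0.93, adjusted p = 0.0475) or after quantile normalization (-1.01, adjusted p = 0.0293). The △Hep call was lost without sham △Hep array 4 (adjusted p = 0.0529), and the fl/fl change passed without PHx △Hep array 1 (adjusted p = 0.0383) or array 4 (adjusted p = 0.0195), which alter only the shared spread.

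**Figure D2:**
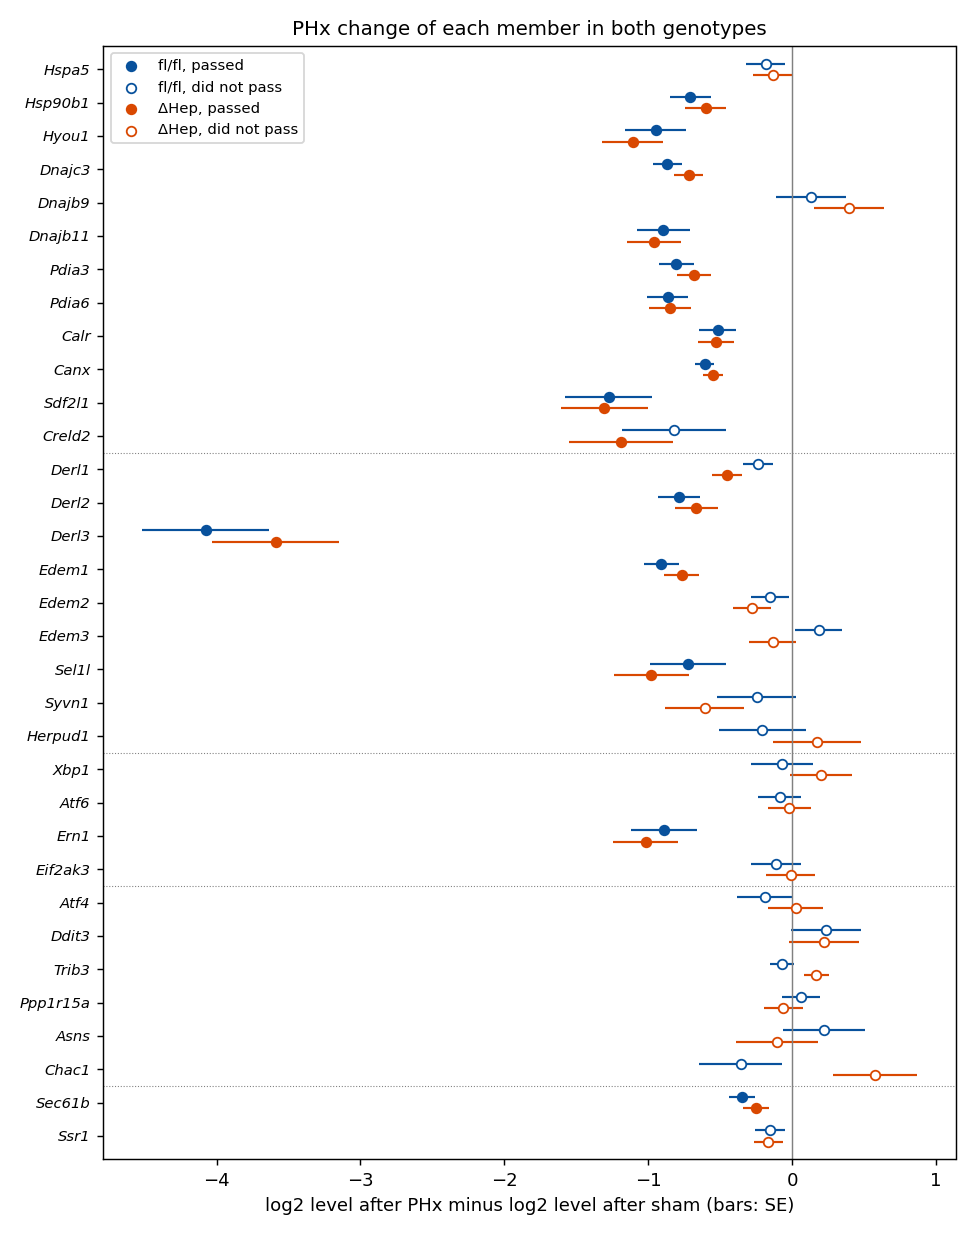
PHx minus sham difference of each of the 33 members on the log2 axis, with fl/fl in blue, △Hep in orange and bars of 1 SE; filled points passed limma at adjusted p under 0.05. Derl3 stands far to the left of the rest at -4.08 and -3.59, and the ATF4 branch from Atf4 to Chac1 has open points on both sides of 0.

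In the degradation class, Derl3 changed the most of all members. Derlins are membrane proteins of the channel through which misfolded chains leave the ER, and Derl3 is known for strong expression in secretory cells. Derl3 read 8.19, 7.80, 8.32 and 8.27 after sham and 4.38, 3.80, 4.12 and 3.98 after PHx in fl/fl livers, and 8.26, 8.51, 8.34 and 8.68 after sham and 6.84, 4.07, 4.07 and 4.47 after PHx in △Hep livers. The 7 PHx arrays other than △Hep array 1 lay between 3.80 and 4.47, and no PHx array reached the sham range. Derl3 was 16.9-fold lower in fl/fl (-4.08 ± 0.44, adjusted p = 7.03e-06) and 12.0-fold lower in △Hep (-3.59 ± 0.44, adjusted p = 2.46e-05). Its fl/fl change was the largest fall among all 30142 genes in that comparison. Without △Hep array 1 its △Hep change was -4.25 (adjusted p = 4.13e-11).

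The other derlins had smaller changes. Derl2 read 4.98, 5.05, 5.02 and 5.12 after sham and 4.46, 3.98, 4.13 and 4.46 after PHx in fl/fl livers, and 5.08, 5.16, 5.09 and 5.00 after sham and 4.76, 4.68, 4.30 and 3.93 after PHx in △Hep livers. No PHx array overlapped sham, and Derl2 was 1.72-fold and 1.59-fold lower (adjusted p = 0.00119 and 0.00349). Derl1 was 1.37-fold lower in △Hep (adjusted p = 0.00449), while its fl/fl change of -0.24 ± 0.11 did not pass (adjusted p = 0.0987). The fl/fl change of Derl1 passed with array medians subtracted (-0.35, adjusted p = 0.0207) and after quantile normalization (-0.46, adjusted p = 0.00184).

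Of the EDEM proteins, which mark misfolded glycoproteins by mannose trimming, only Edem1 passed. Edem1 read 8.03, 7.98, 7.70 and 7.80 after sham and 6.90, 6.81, 7.27 and 6.90 after PHx in fl/fl livers, and 8.08, 7.99, 8.05 and 8.17 after sham and 7.59, 7.37, 6.99 and 7.27 after PHx in △Hep livers. The groups did not overlap, and the changes were -0.91 ± 0.12 (adjusted p = 5.53e-05) and -0.77 ± 0.12 (adjusted p = 2.35e-04). Edem2 differed by -0.15 ± 0.13 and -0.28 ± 0.13 and did not pass (adjusted p = 0.41 and 0.123), although without PHx △Hep array 1 its △Hep change was -0.40 (adjusted p = 0.0249). Edem3 differed by 0.19 ± 0.16 and -0.13 ± 0.16 (adjusted p = 0.41 and 0.573).

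In the membrane complex, the adaptor Sel1l passed in both genotypes and the ligase Syvn1 in neither, and the difference between these genes was not tested. Sel1l read 7.57, 7.77, 7.59 and 7.75 after sham and 7.38, 6.41, 6.80 and 7.21 after PHx in fl/fl livers, and 8.05, 8.08, 8.03 and 7.98 after sham and 7.95, 7.14, 6.85 and 6.29 after PHx in △Hep livers. SEL1L, which holds the ligase, had no overlap between operations and changed by -0.72 ± 0.26 in fl/fl and -0.98 ± 0.26 in △Hep (adjusted p = 0.0476 and 0.0108). Its fl/fl call was close to the threshold and was lost in 12 of the 16 fits that left out 1 array, among them those without PHx fl/fl array 2 (-0.54, adjusted p = 0.146) or array 3 (-0.67, adjusted p = 0.0998) and each fit without a sham array, and also after cyclic loess (-0.61, adjusted p = 0.0881). Syvn1, the ligase, changed by -0.25 ± 0.28 (adjusted p = 0.524) and -0.61 ± 0.28 (adjusted p = 0.106). Without PHx △Hep array 1, at 6.59 against 5.03 to 5.63 on the other 3, its △Hep change was -0.91 (adjusted p = 0.00675), and with array medians subtracted it was -0.76 (adjusted p = 0.0346). Herpud1, a membrane component of the same complex, spread over 7.90 to 9.67 on the PHx fl/fl arrays, and its changes of -0.21 ± 0.31 and 0.18 ± 0.31 did not pass (adjusted p = 0.638 and 0.701). The high fl/fl value was that of array 3, and without it the fl/fl change was -0.59 (adjusted p = 0.0455).

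**Figure D3:**
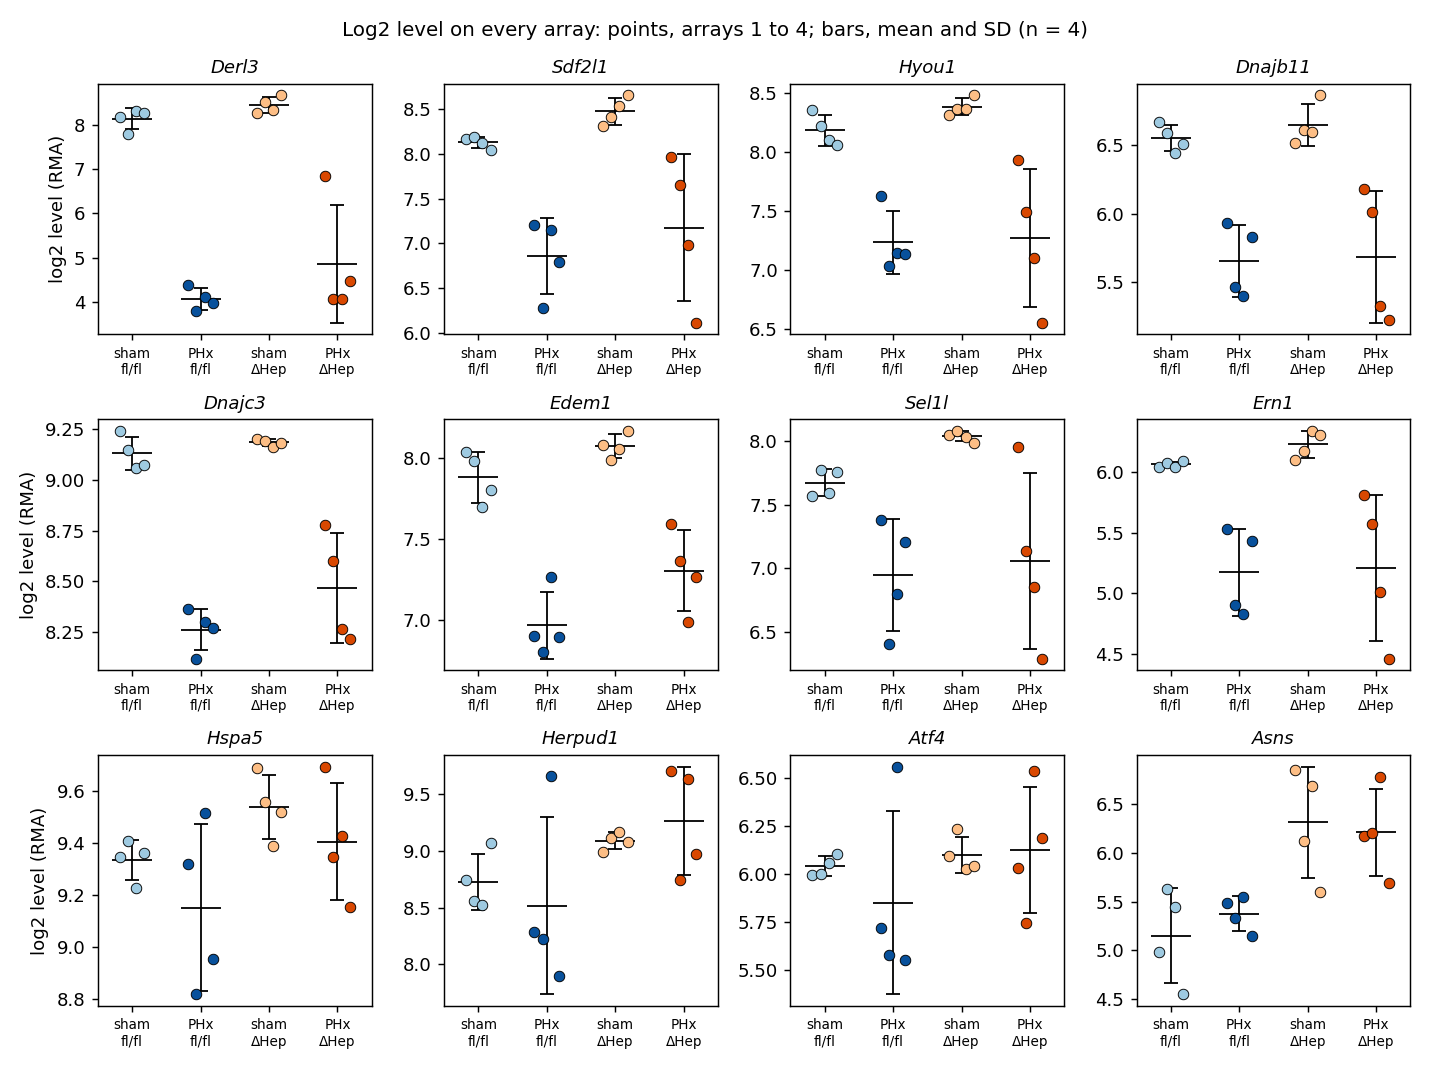
Log2 level of 12 members on every array, each panel with its own axis, points for arrays 1 to 4 and bars for the mean and SD of 4 arrays. Derl3, Dnajc3, Edem1 and Ern1 separate sham from PHx in both genotypes, Hspa5, Herpud1 and Atf4 overlap, and Asns lies higher in △Hep than in fl/fl on average after either operation.

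Of the sensors and their factors, only Ern1 passed. Ern1 read 6.04, 6.07, 6.05 and 6.09 after sham and 5.53, 4.90, 4.82 and 5.43 after PHx in fl/fl livers, and 6.10, 6.18, 6.34 and 6.31 after sham and 5.81, 5.57, 5.01 and 4.46 after PHx in △Hep livers. Every PHx array lay under every sham array, and the IRE1 transcript was 1.86-fold lower in fl/fl and 2.03-fold lower in △Hep (adjusted p = 0.00834 and 0.00347). Xbp1 read 8.24, 8.12, 7.997 and 7.79 after sham and 7.94, 7.91, 8.51 and 7.52 after PHx in fl/fl livers, and 7.94, 7.89, 7.77 and 8.03 after sham and 7.81, 7.62, 8.29 and 8.71 after PHx in △Hep livers. The groups overlapped for this IRE1 substrate, whose changes were -0.07 ± 0.22 and 0.20 ± 0.22 (adjusted p = 0.832 and 0.522). The array reports 1 level for Xbp1 here, so its spliced and unspliced forms were not separated. Atf6 differed by -0.09 ± 0.15 and -0.02 ± 0.15 (adjusted p = 0.689 and 0.941), and Eif2ak3, the PERK gene, by -0.11 ± 0.17 and -0.01 ± 0.17 (adjusted p = 0.65 and 0.973).

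No member of the ATF4 branch passed in either genotype, and the branch had median changes of -0.003 in fl/fl and 0.10 in △Hep. Atf4 read 6.00, 6.00, 6.06 and 6.11 after sham and 5.72, 5.58, 6.56 and 5.55 after PHx in fl/fl livers, and 6.09, 6.24, 6.03 and 6.04 after sham and 6.03, 5.75, 6.54 and 6.19 after PHx in △Hep livers. Array 3 stood above the other PHx fl/fl arrays, and the changes were -0.19 ± 0.19 and 0.03 ± 0.19 (adjusted p = 0.473 and 0.932). Without that array the fl/fl change was -0.43 (adjusted p = 0.0251). Ddit3 read 4.92, 4.39, 4.49 and 4.69 after sham and 4.88, 4.37, 5.27 and 4.92 after PHx in fl/fl livers, and 5.16, 5.14, 4.77 and 4.94 after sham and 5.97, 4.59, 5.38 and 4.96 after PHx in △Hep livers. This gene encodes CHOP, a transcription factor linked to cell death under prolonged stress, and it differed by 0.24 ± 0.24 and 0.22 ± 0.24 (adjusted p = 0.482 and 0.521). Its △Hep difference was -0.02 without PHx △Hep array 1.

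Trib3, a pseudokinase that CHOP and ATF4 activate, differed by -0.07 ± 0.09 and 0.17 ± 0.09 (adjusted p = 0.561 and 0.151). Chac1, which degrades glutathione, differed by -0.36 ± 0.29 and 0.58 ± 0.29 (adjusted p = 0.369 and 0.144). Without PHx △Hep array 2, which was the lowest of its group in 5 of the 6 genes, Trib3 (0.25, adjusted p = 0.0212) and Chac1 (0.89, adjusted p = 0.011) passed as higher in △Hep. Ppp1r15a, the phosphatase subunit GADD34 that restores translation, lay near the median of all genes and differed by 0.06 ± 0.13 and -0.06 ± 0.13 (adjusted p = 0.744 and 0.77). Asns, which makes asparagine, differed by 0.22 ± 0.28 and -0.10 ± 0.28 (adjusted p = 0.578 and 0.817).

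For entry into the ER, Sec61b, a subunit of the translocon, was 1.27-fold lower in fl/fl (adjusted p = 0.00897) and 1.19-fold lower in △Hep (adjusted p = 0.0446). The △Hep call was lost in 10 of the 16 fits without 1 array, with the largest adjusted p, 0.143, without PHx △Hep array 4. It was also lost after cyclic loess (-0.15, adjusted p = 0.223), with array weights (adjusted p = 0.0557) and on the compared groups' arrays alone (adjusted p = 0.107). The fl/fl call was lost after cyclic loess (-0.25, adjusted p = 0.051). Ssr1, a subunit of the translocon-associated TRAP complex, differed by -0.15 ± 0.10 and -0.16 ± 0.10 and did not pass (adjusted p = 0.273 and 0.24).

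Spread among the PHx arrays was wider than among sham arrays. The median SD of the members was 0.11 after sham and 0.26 after PHx in fl/fl, and 0.12 and 0.37 in △Hep, while over all genes it was 0.09 and 0.11 in each genotype. PHx △Hep array 1 was the highest of its group in 26 of the 33 members, among them all 12 chaperones and all 9 degradation genes, and array 4 was the lowest in 22. In fl/fl, array 3 was the highest of the PHx arrays in all 6 genes of the ATF4 branch. Averaged over the 15 members lower in both genotypes, the PHx arrays read 7.17, 6.71, 6.86 and 7.00 in fl/fl and 7.63, 7.23, 6.87 and 6.64 in △Hep, under 7.91 to 8.14 on all sham arrays. Even the highest PHx array thus lay below the sham range for this average, which follows from how these 15 were picked. The sample titles also carry numbers whose meaning they do not give. PHx fl/fl array 1 and PHx △Hep arrays 1 and 2 have the lowest of the PHx numbers and had the highest of these PHx averages. This was seen after the values were known, and a relation was not tested. With PHx △Hep array 1 left out, 19 members were lower in △Hep.

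Wider lists of genes from the same pathways, with no member in them, were counted in the same way. The shares lower over all genes were 20.8% in fl/fl and 17.5% in △Hep, or 30.4% and 26% with dim genes left out. Those higher were 11.9% and 14.8%. Of 29 other folding genes, 19 were lower and 1 higher in fl/fl and 18 lower in △Hep, led by the oxidase Ero1b (-1.12 ± 0.18 and -0.89 ± 0.18, adjusted p = 2.69e-04 and 0.00139) and the prolyl isomerase Ppib (-0.61 ± 0.09 and -0.60 ± 0.09, adjusted p = 1.49e-04 and 1.62e-04). The 1 that rose was Fkbp14, another prolyl isomerase, in fl/fl (0.35 ± 0.11, adjusted p = 0.0252). Of 32 other degradation genes, 13 were lower in fl/fl and 16 in △Hep, and none was higher. Erlin1, a membrane scaffold, had the largest fl/fl fall (-1.01 ± 0.24 and -0.89 ± 0.24, adjusted p = 0.00498 and 0.00989), followed by Selenos, a partner of the derlins (-0.54 ± 0.18 and -0.37 ± 0.18, adjusted p = 0.0321 and 0.134). Of 49 genes of secretory entry and exit, 17 and 19 were lower (34.7% and 38.8%) and none higher. The fl/fl share is near the 30.4% of all genes with dim genes left out. The largest fl/fl falls were those of Mcfd2, a cargo receptor subunit (-0.87 ± 0.26 and -1.10 ± 0.26), and Magt1, an oligosaccharyltransferase subunit (-0.84 ± 0.23 and -0.92 ± 0.23). Their adjusted p were 0.0195 and 0.00531 for Mcfd2, 0.0136 and 0.0077 for Magt1 (limma).

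The remaining lists moved in both directions in fl/fl. Of 33 other ATF4-branch genes, 4 were lower and 3 higher in fl/fl, and 4 were lower and 1 higher in △Hep. These shares lie below those of all genes in both directions (20.8% and 17.5% lower, 11.9% and 14.8% higher). Atf5, a factor related to ATF4, fell by 1.28 and 1.68 on the log2 scale (adjusted p = 4.91e-04 and 3.9e-05), and Shmt2, a mitochondrial serine enzyme, fell by 1.00 and 1.24 (adjusted p = 1.46e-06 and 1.05e-07). Gpt2, an alanine aminotransferase, rose in fl/fl (1.03 ± 0.27, adjusted p = 0.0091) as did Tnfrsf10b, a death receptor (0.33 ± 0.12, adjusted p = 0.0409), and in △Hep neither passed (0.45 and 0.25, adjusted p = 0.222 and 0.111). Tnfrsf10b lay within 1 log2 unit of the negative control probe sets on all arrays, so its rise is one near background. In each group 4 to 8 of these 33 genes lay that near, which limits the calls of this list. Of 19 other sensor and factor genes, 6 were lower and 2 higher in fl/fl, and 9 were lower and none higher in △Hep. The shares lower were 31.6% and 47.4%, where 20.8% and 17.5% of all genes were lower. Nfyb, a subunit of the factor NF-Y that binds the CCAAT part of the ERSE, fell by 0.62 and 0.52 (adjusted p = 6.98e-05 and 2.99e-04), while its partner Nfya rose by 0.26 ± 0.08 in fl/fl (adjusted p = 0.0278) and did not pass in △Hep (0.13 ± 0.08, adjusted p = 0.261). Eif2ak2, the kinase PKR, fell by 0.61 and 0.83 (adjusted p = 0.00342 and 3.34e-04).

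**Figure D4:**
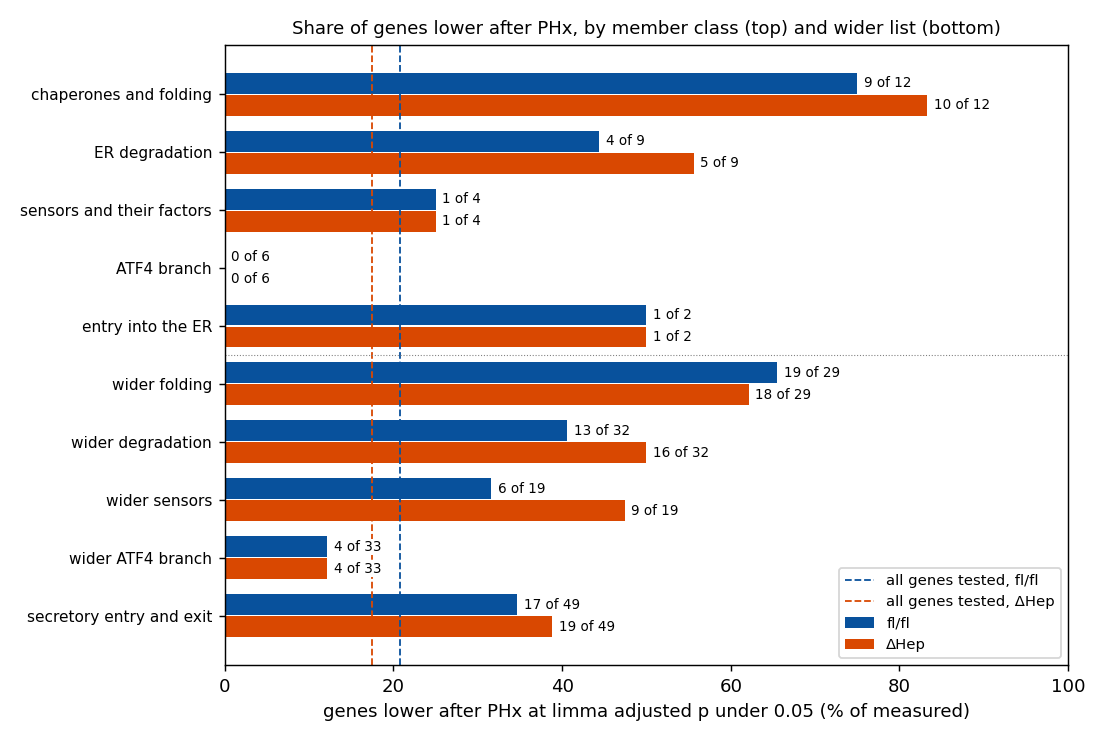
Percent of the measured genes of each member class (top) and wider list (bottom) that were lower after PHx at limma adjusted p under 0.05, in fl/fl (blue) and △Hep (orange), with the count beside each bar and dashed lines for all genes tested (20.8% and 17.5%). Chaperones reach 75.0% and 83.3%, and the ATF4 lists lie at 0 of 6 and 4 of 33, left of the dashed lines. With dim genes left out, 30.4% and 26% of all genes were lower, which is not drawn.

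Creb3l3 was the gene of these lists whose genotype difference passed. It encodes CREBH, a liver transcription factor that is anchored in the ER membrane and released by cleavage, and it is known to act with PPARα in lipid metabolism. Creb3l3 read 6.92, 6.98, 6.92 and 6.82 after sham and 7.20, 7.37, 7.25 and 7.39 after PHx in fl/fl livers, and 6.68, 6.81, 6.64 and 6.55 after sham and 6.66, 6.54, 6.66 and 6.43 after PHx in △Hep livers. The △Hep arrays after PHx lay wholly below the fl/fl arrays (-0.73 ± 0.07, limma adjusted p = 6.51e-04), and those after sham lay below too (-0.24 ± 0.07, adjusted p = 0.403). PHx changed it by 0.39 ± 0.07 in fl/fl (adjusted p = 5.84e-04) and by -0.10 ± 0.07 in △Hep (adjusted p = 0.301), and the difference between these changes did not pass (-0.49 ± 0.10, adjusted p = 0.286).

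Markers of other cells were read beside these falls, including plasma cells and pancreatic acinar cells, which are rich in ER proteins. Of 13 plasma and B cell markers, 10 to 13 lay within 1 log2 unit of the negative control probe sets in every group, among them Jchain, Mzb1 and Tnfrsf17, and the mean of the list was 2.26 to 2.39 on sham fl/fl arrays and 2.14 to 2.20 on PHx fl/fl arrays, 2.20 to 2.27 and 2.18 to 2.28 in △Hep. In that list 5 genes were lower in fl/fl and 0 in △Hep. Of 12 acinar markers of the pancreas, 9 to 11 lay as near the negative controls, and 0 were lower in either genotype. In △Hep 3 acinar markers, Cpb1 (0.16 ± 0.04, adjusted p = 0.005), Cela3b (0.30 ± 0.08, adjusted p = 0.0121) and Ctrb1 (0.31 ± 0.09, adjusted p = 0.0142), were higher after PHx, named here after their values were seen. Kupffer cell and macrophage markers were lower in 5 of 12 in fl/fl and 9 of 12 in △Hep, and their mean was 5.14 to 5.69 after sham and 4.84 to 5.20 after PHx in fl/fl, and 5.35 to 5.80 and 4.82 to 5.23 in △Hep. Endothelial markers were lower in 5 of 11 and 6 of 11 (1 higher in each genotype) and stellate cell markers in 5 of 12 in both genotypes. Of 14 hepatocyte markers, 6 were lower in fl/fl and 4 in △Hep, with a median change of -0.13 and -0.07. Of all genes, 20.8% were lower in fl/fl and 17.5% in △Hep. The part of the shifts in Kupffer, endothelial and stellate markers in the members' falls was not tested.

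Between the genotypes, no member passed after sham, after PHx, or with both operations pooled, where 0.0133%, 0.143% and 0.219% of all genes passed in either direction (limma, adjusted p under 0.05). At an unadjusted p under 0.05 the counts of members were 3, 6 and 9 of 33, where 9.26%, 7.47% and 5.83% of all genes passed, so that the count after sham is no larger a share than that of all genes. Each of these members was higher in △Hep, the direction of 2.14%, 4.12% and 2.49% of all genes at that threshold. △Hep means lay above fl/fl means in 28 of 33 members after sham, against 40.7% of all genes, and in 30 of 33 after PHx, against 56.3%. Members vary together from array to array, so these counts are not 33 separate readings. The median difference was 0.16 after sham and 0.16 after PHx on the log2 scale.

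Asns came nearest to the threshold. Asns read 4.98, 5.63, 5.44 and 4.55 after sham and 5.48, 5.34, 5.54 and 5.14 after PHx in fl/fl livers, and 6.85, 6.13, 6.68 and 5.60 after sham and 6.17, 6.20, 6.78 and 5.69 after PHx in △Hep livers. All 4 △Hep arrays lay above all 4 fl/fl arrays after PHx, as was true of 2.41% of all genes and of no other member, while after sham △Hep array 4, at 5.60, lay just under fl/fl array 2, at 5.63. The difference was 1.16 ± 0.28 after sham (adjusted p = 0.378), 0.83 ± 0.28 after PHx (adjusted p = 0.479) and 1.00 ± 0.20 pooled (adjusted p = 0.0695), a 2.00-fold higher pooled level in △Hep. It passed in the pooled comparison without sham △Hep array 4 (1.12, adjusted p = 0.0252) or PHx △Hep array 4 (1.08, adjusted p = 0.0378).

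After sham, △Hep arrays lay wholly above fl/fl arrays in 7 members, Derl1, Edem2, Edem3, Sel1l, Syvn1, Sdf2l1 and Ern1, where 2.38% of all genes did so. Of these, 5 belong to the degradation class, all 9 members of which had a higher △Hep mean. The wider lists leaned the same way after sham. △Hep means were higher in 31 of 32 other degradation genes (6 wholly above) and 27 of 29 other folding genes (0 wholly above). They were higher in 47 of 49 genes of secretory entry and exit (14 wholly above). For other sensor genes this held in 15 of 19 (0 wholly above) and for other ATF4-branch genes in 21 of 33 (3 wholly above). Array medians of the positive control probe sets were 5.82 to 5.97 on sham fl/fl and 5.96 to 6.06 on sham △Hep arrays. The part of that shift in the genotype differences was not tested. The SEs use 1 spread per gene from all 16 arrays, and the members' median SD was 0.11 and 0.12 after sham but 0.26 and 0.37 after PHx. Among the 7 members the largest difference was that of Syvn1, at 0.64 ± 0.28 (adjusted p = 0.513). None passed, also not with the sham arrays fitted alone. After PHx the largest after Asns were Derl3 at 0.79 ± 0.44 (adjusted p = 0.739) and Herpud1 at 0.75 ± 0.31 (adjusted p = 0.608). Without △Hep array 1 the Derl3 difference was 0.13 (adjusted p = 0.859). Herpud1 passed without PHx fl/fl array 3, at 1.13 after PHx (adjusted p = 0.0291) and 0.75 pooled (adjusted p = 0.0336).

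**Figure D5:**
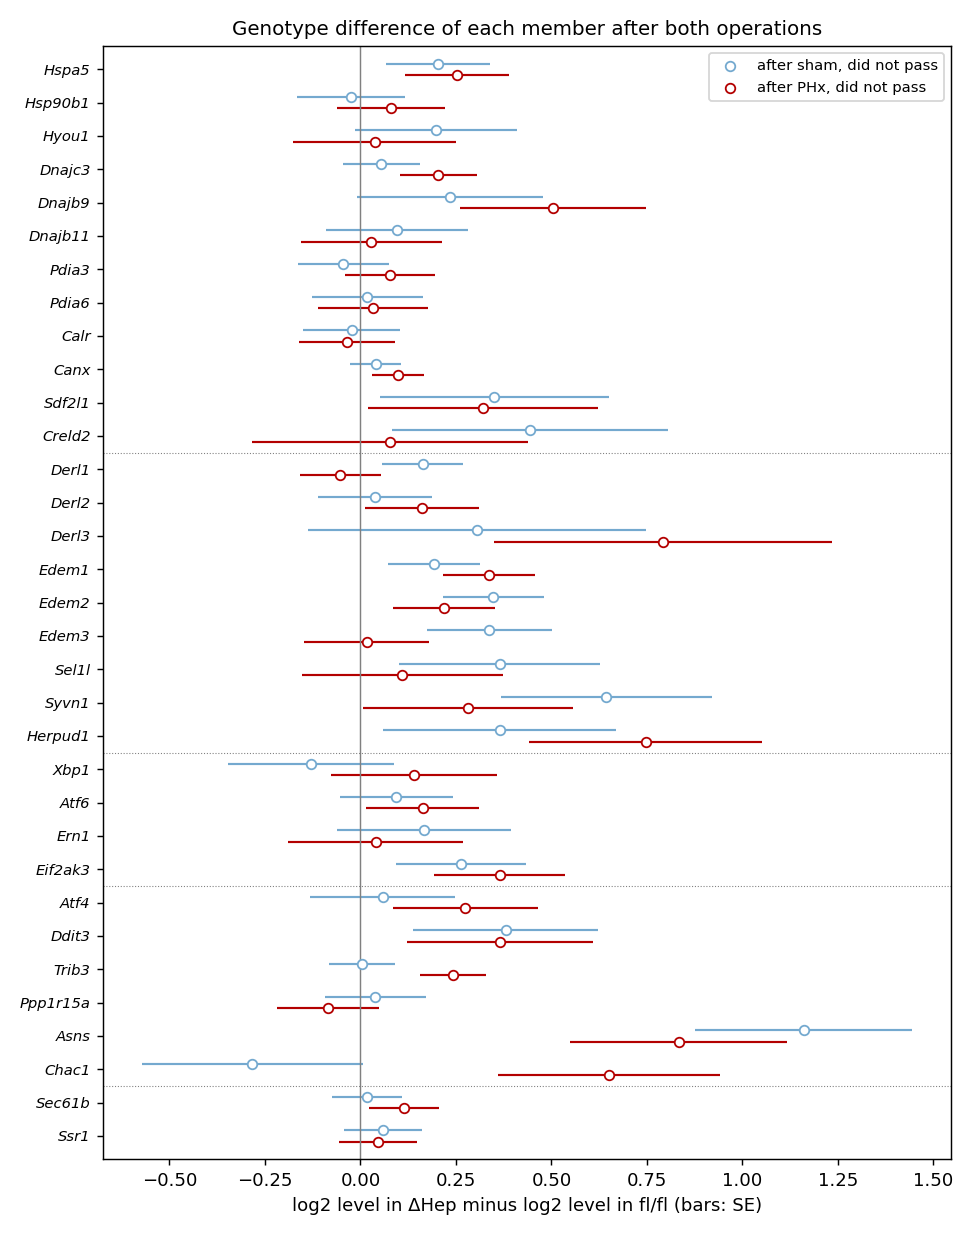
△Hep minus fl/fl difference of each of the 33 members on the log2 axis after sham (light blue) and after PHx (red), with bars of 1 SE and all points open because none passed limma at adjusted p under 0.05. Most points lie right of 0, with Asns farthest at 1.16 and 0.83, and Chac1 lies left of 0 after sham (-0.28) and right after PHx (0.65).

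No member's PHx change differed between the genotypes by the test of the difference itself, and 0% of all genes passed it. At an unadjusted p under 0.05, 1 of 33 members passed, a smaller share than the 11.3% of all genes. It was Chac1, whose change was higher in △Hep by 0.93 ± 0.41 (adjusted p = 0.418, the smallest of the members). With SEs of this size, differences between the genotypes' changes could be large and still not pass, as for Derl3, at 0.49 ± 0.63 (adjusted p = 0.82). For the chaperones the differences ran from -0.37 for Creld2 to 0.27 for Dnajb9, with a median of 0.03.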

How the data were processed

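Liver RNA was hybridised to 16 Affymetrix arrays, per the labels. The deposited values are log2 levels; the submitters' processing notes name RMA, with no version or settings. There were 72688 probe sets. GEO's platform annotation gave 1 gene symbol for 30604 of them, several for 2146 and none for 39938; 827 symbols were updated through RefSeq. The probe set with the highest mean stood for each of 30142 genes.

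All genes were fitted with limma 3.58.1 (R 4.3.3, data.table, version 1.17.8) with 1 mean per group, 12 residual degrees of freedom, eBayes and Benjamini-Hochberg adjustment over all genes, with 0.05 as the threshold and no filter on dim genes. Fold changes are 2 to the power of log2 differences of group means. The script was tested on simulated data. The precision is limited by 4 arrays a group. The members and lists were chosen with earlier results of these data known. Values on every array are given for members with a change of at least 0.6 that passed, and for Hspa5, Xbp1, Atf4, Ddit3 and Ppara; other members are named with their differences, and wider lists by their 2 largest falls and rises in fl/fl. Creb3l3 and Asns are given by array because of their genotype values. Alternatives covered scaling, dim genes, probe sets, moderation, array weights, the arrays and genes fitted, and leaving out each array.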

Additional observations from a re-analysis of the deposited data

Results flagged for a closer look

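In 6 of 132 gene and group combinations (4.55%), the highest or lowest of the 4 arrays stood further from its nearest neighbour than Dixon's critical value for the share of the range allows, where chance gives about 5%. Calr read 9.66 on sham △Hep array 3, below the other arrays of its group. Derl3 read 6.84 on PHx △Hep array 1, above the other arrays. Edem3 read 5.58 on PHx △Hep array 4, below the others. Atf6 read 6.39 on sham fl/fl array 3 and 6.35 on PHx △Hep array 2, each the lowest of its group. Atf4 read 6.56 on PHx fl/fl array 3, above the others.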

How the results depend on the processing

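No paired analysis was possible because the labels give no replicate numbers shared between groups. The count of members lower after PHx was 13 to 19 in fl/fl (main value 15) and 15 to 20 in △Hep (main value 17) over 10 other settings, and 14 to 16 and 15 to 19 when 1 array was left out. No member's PHx change that passed with the deposited values or in an alternative had the opposite sign in the other. Of the 66 PHx changes (33 members in each genotype), 14 that did not pass changed sign in at least 1 setting. The count higher in △Hep was 0 to 2 over these leave-one-out fits, with Trib3 and Chac1 added without PHx △Hep array 2. The genotype count after PHx was 0 to 1 when 1 array was left out, and 1 (Herpud1) with PHx fl/fl array 3 and PHx △Hep array 1 left out together, a setting chosen after seeing the data. The pooled genotype count was 0 to 1 when 1 array was left out, 1 (Asns) with dim genes left out or with array weights, and 1 (Herpud1) in the added setting. The cause was not tested. Counts after sham and of the difference between genotypes' changes were 0 in every setting run. Over all genes, 9868 passed in fl/fl with the deposited values, 15420 with array medians subtracted and 15400 after quantile normalization, and 9734 in △Hep became 15350 with medians subtracted. Calls of Creld2, Derl1, Sel1l, Syvn1 and Sec61b that changed with the setting are given beside their results. In addition, Edem2 passed in △Hep with medians subtracted (adjusted p = 0.0171) and after quantile normalization (0.0494), Ssr1 in △Hep under both (0.0249 and 0.0145) and in fl/fl after quantile normalization (0.0102), and Trib3 as lower in fl/fl after quantile normalization (0.0443). Signal over background limits Ppp1r15a most, at 2.86.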

Other observations

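Ddit3 had another probe set, which read lower on every array (4.24 to 4.58 on sham fl/fl, 3.96 to 4.85 on PHx fl/fl, 4.64 to 4.88 on sham △Hep and 4.40 to 5.73 on PHx △Hep), and it also had its highest value on PHx △Hep array 1. Atf3, a stress-induced factor named after its values were seen, read 3.22, 4.66, 4.10 and 3.00 on the PHx fl/fl arrays and 3.37, 3.66, 4.28 and 4.90 on the PHx △Hep arrays, against 3.12 to 3.33 on all sham arrays. On the PHx △Hep arrays, whose averages over the 15 members lower in both genotypes were 7.63, 7.23, 6.87 and 6.64, the array with the highest Atf3 level had the lowest average.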
